A study of Mus musculus with 6 samples.

Results

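The Clcn5 intron cluster comprises 5 microRNA (miRNA) hairpins, miR-532, miR-188, miR-362, miR-501 and miR-500, that lie in an intron of the mouse gene Clcn5. Its members were the rows of the known miRNA count table that carried these 5 names followed by an arm suffix, which gave 10 arms of 1978 known miRNAs: both arms of mmu-miR-532, mmu-miR-188 (mmu-miR-188-5p, mmu-miR-188-3p), mmu-miR-362 (mmu-miR-362-5p, mmu-miR-362-3p), mmu-miR-501 and mmu-miR-500 (mmu-miR-500-5p, mmu-miR-500-3p). The prefix mmu, for mouse, is left out below. The cluster was chosen by its place in the genome and by values of the same hypoxia comparison, since calls of miR-362-3p and miR-188-5p in a fit of these counts were known when it was picked. Differences between hypoxia and control are therefore given for these arms as a description, and they support nothing beyond themselves.

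Clcn5 encodes ClC-5, an exchanger of chloride and protons in endosomes, known for Dent disease of the kidney. An miRNA hairpin in an intron is cut from the host transcript by Drosha and then by Dicer, which leaves a duplex of a 5p and a 3p strand. Usually a single strand of the duplex is kept by an Argonaute protein, where bases 2 to 8, the seed, select target transcripts. In mouse skeletal muscle, miR-501 is known as a miRNA of activated satellite cells, the stem cells of muscle, and in mouse heart miR-188-3p and miR-532-3p have been studied as regulators of autophagy and of cell death.

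The series profiled small RNA from cardiac progenitor cells that are c-kit+, that is, heart cells bearing the receptor tyrosine kinase c-kit, taken from wild-type male C57BL/6 mice of 4 to 6 weeks by magnetic sorting. It holds 3 libraries of cells kept for 12 hours under hypoxia, which the titles call Model, and 3 Control libraries labelled 0 hours. The labels enter hypoxia as the treatment of both groups, so titles and times set the groups. They give neither the oxygen level nor how many mice were pooled. The extraction text speaks of exosomes and the design text of cells, a point that was not settled. Time in culture and hypoxia cannot be told apart unless control cells were cultured as long.

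Library totals ran from 12285970 to 16975987 counts and detected known miRNAs from 959 to 1023. The count columns carry a digit, of which 1 was read as hypoxia and 0 as control, labelled 0 hours, and a letter, A to C, by which libraries are named, and every direction depends on that reading of the digit. Levels are TMM-scaled CPM, that is, each count relative to its library total after edgeR's TMM adjustment of that total. The mRNA of c-kit was not measured, so the labelled cell type could not be checked by its defining marker. Summed over 2 endothelial arms of miR-126a the libraries held 200685 to 238090 CPM in hypoxia and 227224 to 249670 CPM in control. Sums over 7 muscle miRNAs ran from 193 to 307 CPM in hypoxia and from 161 to 287 CPM in control, those over 5 fibroblast and smooth muscle miRNAs from 26575 to 50352 CPM in hypoxia and from 26075 to 57427 CPM in control, and those over 6 blood miRNAs from 40.6 to 54.7 CPM in hypoxia and from 46.5 to 53.5 CPM in control. The groups overlapped for all 4 of these sums. Sums can hide single members. By log2 fold change, 5 of 5 tested muscle miRNAs were higher in hypoxia, as were 1 of 2 endothelial arms. For fibroblast and smooth muscle it was 3 of 5, and for blood 3 of 4 tested. None of these miRNAs was called in the fits given below. The hypoxia-induced miR-210-3p ran from 440 to 674 CPM in hypoxia and from 188 to 296 CPM in control, with no overlap.

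All 5 hairpins are transcribed from the minus strand of chromosome X (GRCm38, the assembly the submitters' notes call mm10), within the 165549 bases of Clcn5. In the order of transcription they are Mir532 (chrX:7248402-7248497), Mir188 (chrX:7247989-7248056), Mir362 (chrX:7241982-7242046), Mir501 (chrX:7241243-7241351) and Mir500 (chrX:7237683-7237774), which together span 10815 bases. Gaps between neighbours were 345, 5942, 630 and 3468 bases. GENCODE lists 3 protein-coding Clcn5 transcripts. In 2 of them all 5 hairpins lie in the same intron of 103648 bases, intron 3 of Clcn5-202 and intron 2 of Clcn5-203. The remaining transcript, Clcn5-201, starts downstream of the hairpins and does not contain them.

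The RefSeq table of miRNAs (GRCm38.p6) gave mature sequences for 9 of the 10 arms. They are shown 5′ to 3′ with the seed in capitals, because seeds and near-identical arms decide which members can be compared. The first group holds arms that share the seed AUCCUUG, followed by miR-501-5p, which has the first 7 bases in common with them.
miR-362-5p: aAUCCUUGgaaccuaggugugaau
miR-500-5p: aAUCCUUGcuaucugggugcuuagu
miR-501-5p: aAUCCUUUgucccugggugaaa

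The next group shares the seed AUGCACC.
miR-501-3p: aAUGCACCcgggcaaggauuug
miR-500-3p: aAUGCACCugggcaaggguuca

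The other arms each have a seed of their own within the cluster.
miR-362-3p: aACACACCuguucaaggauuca
miR-188-5p: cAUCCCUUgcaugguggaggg
miR-188-3p: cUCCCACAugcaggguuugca
miR-532-3p: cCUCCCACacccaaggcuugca

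The 9 sequences thus held 7 different seeds. From the 5′ end, miR-501-3p and miR-500-3p were identical at 18 of 22 positions, including the first 8, and miR-362-3p and miR-500-3p at 17 of 22. The 3p arms of miR-188 and miR-532 share the stretch CUCCCACA, which begins at base 1 of miR-188-3p and at base 2 of miR-532-3p, so their seeds are offset by 1 base. The sources used here do not state how reads that match several miRNAs were assigned. No row of the table had counts within 1% of a member's in every library, so no member was a plain copy of another row.

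Levels within the cluster differed widely, and miR-532-5p alone held 75.9% of the 161788 counts of the cluster over all libraries. This arm, studied in human melanoma as a regulator of the transcription factor RUNX3, averaged 1397 CPM over the 6 libraries. Arms miR-501-3p (156 CPM) and miR-362-5p (150 CPM) followed, then miR-362-3p (62.2 CPM), miR-532-3p (34.2 CPM), miR-188-5p (15.8 CPM), miR-500-3p (14.3 CPM), miR-501-5p (6.88 CPM), miR-500-5p (1.51 CPM) and miR-188-3p (0.504 CPM). Since the sequenced arms are 21 to 25 bases long, CPM was used for this order with no length scaling. The order, and the arm ratios below, are those of reads. Whether arms of different sequence yield reads equally well was not tested.

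Each of the 9 neighbours in this order was compared within libraries by a two-sided exact sign-flip permutation test over 6 libraries, with Benjamini-Hochberg adjustment. For 6 neighbouring pairs the upper arm was higher in 6 of 6 libraries (exact adjusted p = 0.0469 each, from the smallest p the test can give, 0.0313). The order itself was taken from the same 6 libraries, hypoxia and control together. These p-values therefore describe that order and do not test one set beforehand. The step from miR-532-5p down to miR-501-3p was the widest, at 8.92-fold (3.16 ± 0.17 on the log2 scale, SD, n = 6). The order was not resolved between miR-501-3p and miR-362-5p (0.05 ± 0.19 on the log2 scale, exact adjusted p = 0.563) or between miR-188-5p and miR-500-3p (0.08 ± 0.43, exact adjusted p = 0.656). miR-362-3p exceeded miR-532-3p in 5 of 6 libraries (0.79 ± 0.56, exact adjusted p = 0.0804). Same-lettered libraries of the 2 groups varied together by the check given with the processing, so the 6 libraries are not fully independent. Flipped by letter instead of by library, the test could not reach the 0.05 threshold.

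**Figure D1:**
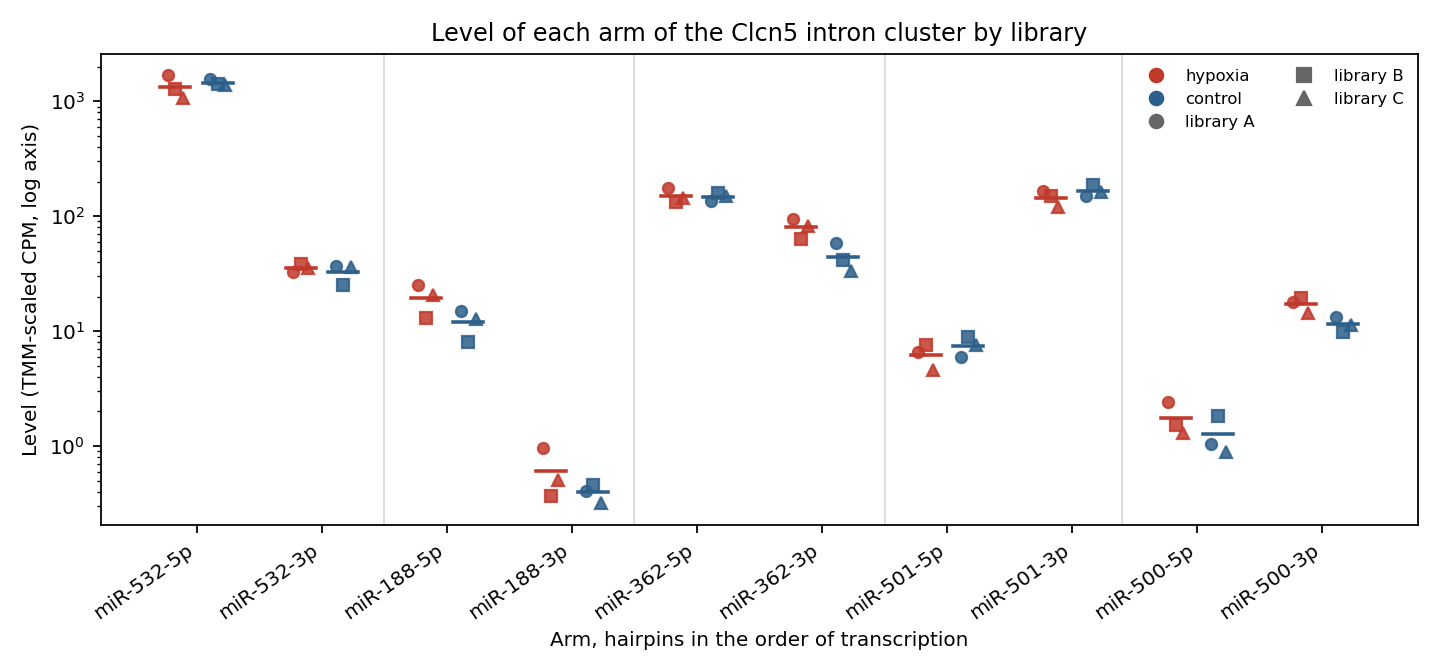
Level of each of the 10 arms in TMM-scaled CPM (log axis), with hypoxia libraries left of control libraries, a point for each library shaped by its letter and a bar at the group mean. The arms spread from 1397 CPM for miR-532-5p to 0.504 CPM for miR-188-3p, and for miR-362-3p and miR-500-3p every hypoxia point lies above every control point.

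Which strand dominated changed along the cluster. The 5p arm was the more abundant one for miR-532, miR-188 and miR-362 in 6 of 6 libraries, and the 3p arm for miR-501 and miR-500 in 6 of 6 (two-sided exact sign-flip permutation tests over 6 libraries, adjusted p = 0.0313 for each of the 5 hairpins). As for the order of levels, same-lettered libraries varied together, so the 6 libraries are not fully independent. Flipped by letter instead of by library, these tests could not reach the threshold either. On the log2 scale the ratio of 5p to 3p reads averaged 5.35 ± 0.35 for miR-532 and 4.77 ± 0.46 for miR-188 (SD, n = 6), or 40.7-fold and 27.4-fold. For miR-501 and miR-500 the same ratio was -4.51 ± 0.17 and -3.23 ± 0.51 (SD, n = 6). The most even hairpin was miR-362, with a ratio of 1.35 ± 0.56 (SD, n = 6), 2.55-fold in favour of the 5p arm. The dominant arms of miR-501 and miR-500 are those that share the seed AUGCACC.

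Adjusted over all 619 known miRNAs that passed the filter on low counts, edgeR's quasi-likelihood test without a block called 0 of them (0.0%), and hence 0 of the 9 cluster arms tested. At an unadjusted p under 0.05 it gave 42 of 619 miRNAs, 2 of them in the cluster, and DESeq2 called 1 known miRNA, none in the cluster. With a block for the column letter, 14 miRNAs passed in edgeR (2.26%), 6 of them higher in hypoxia (0.969%) and 8 lower (1.29%), and 2 of the 9 cluster arms were among the higher ones, miR-362-3p and miR-188-5p. Those calls were part of what singled out the cluster, so nothing is read from that share. Both were lost when letter pair A or letter pair C was left out, settings in which edgeR called 0 miRNAs at all (unadjusted p lay under 0.05 for 135 without pair A and for 60 without pair C), and both were kept without pair B, where edgeR called 23 of 627 miRNAs. The arm left out by the filter was miR-188-3p.

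As a set the arms did not move one way. Of the 9 tested, 6 had a positive log2 fold change and 3 a negative one, with a median of 0.11 beside 0.01 over all 619 tested miRNAs, of which 51.2% were positive. Within the letters the median of the 9 was 0.37 (A), -0.14 (B) and -0.04 (C). The summed level of the 10 arms was 2205, 1713 and 1486 CPM in hypoxia A, B and C, against 1973, 1860 and 1791 CPM in control A, B and C. Sums overlapped between the groups, and so did the sums of the 9 arms other than miR-532-5p, at 458 ± 55.6 CPM in hypoxia and 425 ± 15.3 CPM in control (SD, n = 3 each). In bulk RNA such as this, fewer cells with an miRNA and less of it per cell cannot be told apart.

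The first hairpin to be transcribed, miR-532, showed no separation of the groups on either arm. miR-532-5p stood at 1684, 1285 and 1063 CPM in hypoxia A, B and C, against 1556, 1417 and 1375 CPM in control A, B and C, a log2 fold change of -0.11 (SE 0.20). Hypoxia libraries held both the highest and the lowest values. miR-532-3p, which in mouse cardiomyocytes is known to target the apoptosis repressor ARC, averaged 35.6 ± 3.01 CPM in hypoxia and 32.9 ± 6.63 CPM in control (SD, n = 3 each), which differ by 0.11 on the log2 scale (SE 0.22). Its difference was positive only between the B libraries (0.62), being -0.18 for A and -0.04 for C.

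miR-188-5p, which in mouse bone marrow stromal cells steers the choice between bone and fat fates, stood at 25.1, 13.1 and 20.7 CPM in hypoxia A, B and C, against 14.9, 7.99 and 12.9 CPM in control A, B and C. The groups overlapped, because both B libraries were the lowest of their group and hypoxia B fell between control C and control A. Within each letter the hypoxia library was higher by nearly the same amount, 0.75 (A), 0.71 (B) and 0.69 (C) on the log2 scale. The log2 fold change was 0.72 in both fits, with a standard error of 0.32 without the letter block and 0.13 with it. Its partner miR-188-3p, studied in mouse heart as a repressor of the autophagy gene Atg7, had 16, 6 and 7 counts in hypoxia A, B and C, against 5, 6 and 5 counts in control A, B and C. At 0.613 ± 0.31 CPM in hypoxia and 0.395 ± 0.0719 CPM in control (SD, n = 3 each), a difference between the groups was not detectable at this depth.

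The arms of miR-362 parted most. miR-362-3p, studied in human colorectal cancer cells as a brake on the cell cycle, stood at 94.7, 63.7 and 81.8 CPM in hypoxia A, B and C, against 58.0, 41.8 and 33.5 CPM in control A, B and C. The lowest hypoxia library lay above the highest control library. Its mean was 80.1 ± 15.5 CPM in hypoxia and 44.4 ± 12.4 CPM in control (SD, n = 3 each), a ratio of 1.80, and its log2 fold change was 0.85 (SE 0.26) without and 0.87 (SE 0.16) with the letter block. The hypoxia library was higher by 0.71 in pair A, 0.61 in pair B and 1.29 in pair C.

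miR-362-5p, cut from the same hairpin, stood at 175, 134 and 145 CPM in hypoxia A, B and C, against 135, 159 and 150.0 CPM in control A, B and C. The hypoxia libraries were both the highest and the lowest, and the log2 fold change was 0.03 (SE 0.19). The hairpin is shown 5′ to 3′ with both arms in capitals, the 5p arm before the loop and the 3p arm after it.
Mir362: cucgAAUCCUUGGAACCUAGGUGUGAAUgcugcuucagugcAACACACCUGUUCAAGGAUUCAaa

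Of the reads on this hairpin, the 3p arm took 35.1% in hypoxia A (exact Clopper-Pearson 95% interval 33.7 to 36.6), 32.2% in hypoxia B (30.6 to 33.9) and 36.0% in hypoxia C (34.4 to 37.8). In control it took 30.0% in A (28.2 to 31.9), 20.8% in B (19.3 to 22.4) and 18.3% in C (16.9 to 19.7). The intervals cover counting error only. Every hypoxia library lay above every control library, with means of 34.5% ± 1.98 in hypoxia and 23.0% ± 6.17 in control (SD, n = 3 each). Leaving out 1 library at a time, the difference of 11.5 percentage points ran from 9.09 to 15.0. The share is made from the miR-362-3p counts whose call was known when the cluster was picked. It therefore restates that difference in part, and its range is given as a description only.

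Among all 189 hairpins with both arms tested, the 3p share did not overlap between the groups for 35 (18.5%), and was higher in hypoxia for 19 of these (10.1%). In the cluster that was so for 1 of 4 such hairpins, miR-362. By the size of its shift in the log2 ratio of 3p to 5p reads, 0.84 higher in hypoxia, miR-362 ranked 10 of 189. That shift holds the miR-362-3p difference known when the cluster was picked, so the rank is a description and no separate evidence. The ratio within letters shifted by 0.34 in pair A, 0.86 in pair B and 1.33 in pair C. The other 3 cluster hairpins ranked 94 (miR-532), 151 (miR-500) and 169 (miR-501), with shifts of 0.26, 0.12 and 0.06.

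**Figure D2:**
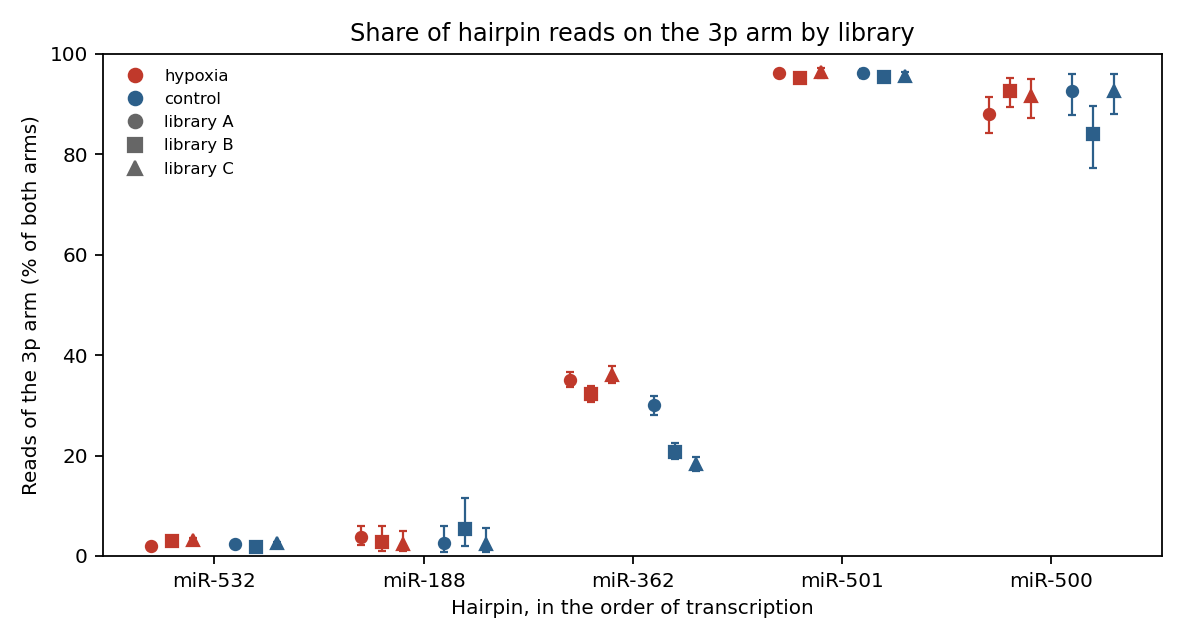
Share of each hairpin's reads on its 3p arm, in percent of both arms, with hypoxia libraries left of control libraries, a point for each library and bars for exact 95% intervals. The 3p share is at least 84.1% for miR-501 and miR-500 and at most 5.45% for miR-532 and miR-188, and only for miR-362 do the groups stand apart (34.5% in hypoxia and 23.0% in control on average).

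**Figure D3:**
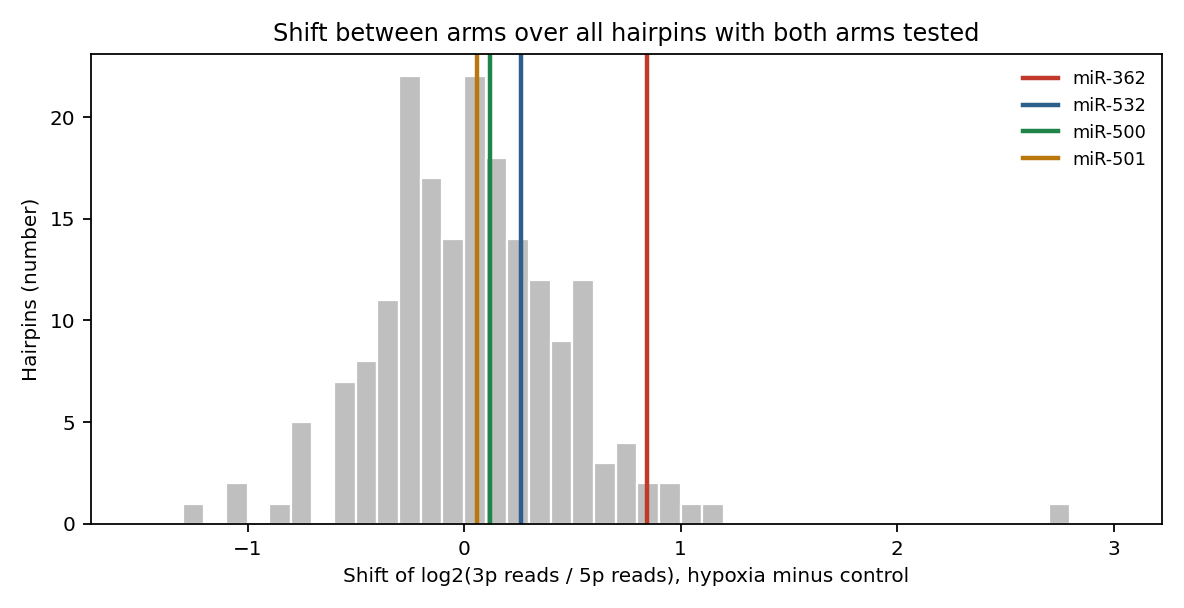
Number of hairpins by the shift of the log2 ratio of 3p to 5p reads, hypoxia minus control, over all 189 hairpins with both arms tested, with lines at 4 cluster hairpins. miR-362 lies at 0.84, in the right part of the distribution, and miR-532, miR-500 and miR-501 lie at 0.26, 0.12 and 0.06, within its bulk.

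Arms of miR-501 and miR-500, which share seeds or nearly so, had log2 fold changes of opposite sign. Of these arms only miR-500-3p kept its sign in all 3 letters, and the difference between the hairpins was not tested. miR-501-3p stood at 167, 149.8 and 119 CPM in hypoxia A, B and C, against 151, 188 and 163 CPM in control A, B and C, a log2 fold change of -0.20 (SE 0.20). Groups overlapped. For miR-501-5p the levels were 6.26 ± 1.55 CPM in hypoxia and 7.49 ± 1.46 CPM in control (SD, n = 3 each), which differ by -0.26 on the log2 scale (SE 0.28).

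miR-500-3p, whose human counterpart has been studied in liver cancer, stood at 17.9, 19.4 and 14.4 CPM in hypoxia A, B and C, against 13.4, 9.76 and 11.3 CPM in control A, B and C. The lowest hypoxia library lay just above the highest control library, and all 3 letters showed a higher hypoxia value (0.42, 0.99 and 0.34 on the log2 scale). The log2 fold change was 0.58, with a standard error of 0.22 without and 0.16 with the letter block, and neither fit called it after adjustment. miR-500-5p had only 13 to 40 counts per library, at 1.75 ± 0.58 CPM in hypoxia and 1.26 ± 0.51 CPM in control (SD, n = 3 each), and its log2 fold change of 0.48 had a standard error of 0.43. miR-501-3p, which carries the same seed as miR-500-3p, held most of the reads with that seed, at 156 CPM beside 14.3 CPM over the 6 libraries.

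Counted over the 9 tested arms, levels of the groups did not overlap for 2, both higher in hypoxia, where 7.43% of all tested miRNAs were higher without overlap and 5.49% lower. Higher in hypoxia within all 3 letters were 3 arms (miR-362-3p, miR-188-5p and miR-500-3p), beside 20.0% of all tested miRNAs, and lower within all 3 were 0 arms, beside 19.5%.

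**Figure D4:**
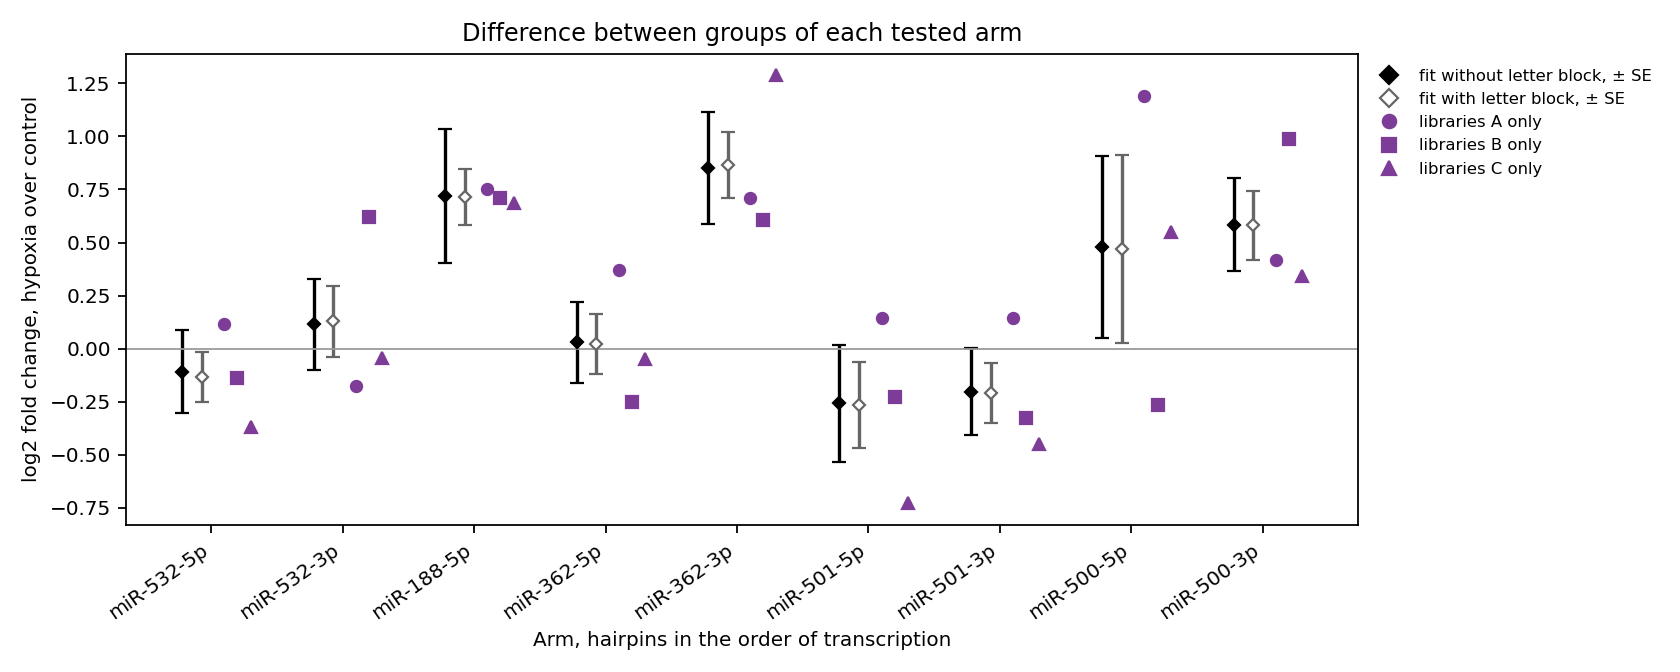
Log2 fold change of hypoxia over control for each of the 9 tested arms, with the edgeR estimate ± SE without the letter block (filled), with it (open), and the difference between the libraries of each letter (purple). Points of all 3 letters lie above 0 for miR-188-5p, miR-362-3p and miR-500-3p, and for the other arms the letters fall on both sides of 0.

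Apart from that contrast, libraries of a group differed in how the arms stood relative to the group mean. In hypoxia A 8 of 9 tested arms lay above the mean of the hypoxia libraries, with a median deviation of 0.22 on the log2 scale, in hypoxia B 4 of 9 did, and in hypoxia C 2 of 9, with a median of -0.25. Over all tested miRNAs 50.4% lay above in hypoxia A, 46.0% in hypoxia B and 48.9% in hypoxia C. In control libraries A, B and C the numbers were 5, 4 and 4 of 9, beside 49.1%, 51.9% and 44.9% of all tested miRNAs. The 9 arms come from 5 hairpins and are not independent of each other. Whether the arms varied together more in hypoxia than in control libraries was not tested.

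Outside the cluster, 2 mouse miRNAs of the RefSeq table have a seed identical to that of a member. The sequences of the tested relative and of the cluster arm that shares its seed are set side by side with the seed in capitals.
miR-362-3p: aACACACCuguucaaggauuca
miR-329-3p: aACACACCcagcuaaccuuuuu

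miR-329-3p, encoded in the imprinted Dlk1-Dio3 region of chromosome 12, stood at 68.2, 30.5 and 35.5 CPM in hypoxia A, B and C, against 63.7, 32.3 and 38.9 CPM in control A, B and C. Both A libraries were about as high as each other and above the rest. Its log2 fold change was -0.01 (SE 0.37), and -0.04 (SE 0.12) with the letter block, where miR-362-3p had 0.87 (SE 0.16). The difference between these 2 fold changes was not tested, since the same contrast had chosen miR-362-3p. The other relative, miR-7061-3p, which has the seed of miR-188-5p, had 0 counts in every library.

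Of the 140 other known arms encoded on chromosome X alone, 42 passed the filter, 26 with a positive and 16 with a negative log2 fold change, at a median of 0.11, beside 51.2% positive and a median of 0.01 over all 619 tested miRNAs. With the letter block 1 of the 42 was called, miR-503-5p, higher in hypoxia, beside 14 of all 619 (2.26%). The 3 most abundant were miR-221-3p and miR-222-3p, known repressors of c-kit, and miR-98-5p of the let-7 family. Their levels were 2439 ± 132 CPM in hypoxia and 2485 ± 392.3 CPM in control for miR-221-3p (SD, n = 3 each). For miR-222-3p they were 1183 ± 95.6 CPM in hypoxia and 1655 ± 473 CPM in control, and for miR-98-5p 1420 ± 102 CPM in hypoxia and 1365 ± 155 CPM in control (SD, n = 3 each). None of these 3 was called with or without the block.

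Over the 6 libraries, the mean profile of the 9 tested arms was compared with that of every tested miRNA of at least 10 CPM outside the cluster, 355 in all, by the root mean square difference of log2 CPM centred on each miRNA's own mean. The 5 nearest were miR-92b-3p (0.07), miR-29a-5p (0.08), miR-672-5p (0.11), let-7j (0.11) and miR-103-3p (0.11). The cluster's own 9 arms lay farther from their mean profile, from 0.16 (miR-362-5p) to 0.43 (miR-188-5p). The 5 are thus near an average of arms that differ among themselves, and how near they are to single arms was not tested. The profile also holds the hypoxia difference by which the cluster was chosen.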

How the data were processed

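The authors deposited raw read counts, whole numbers per known mature miRNA and library. Per the submitters' processing notes, bcl2fastq 2.0, DESeq2 and the build mm10 were used, in no stated role; aligner, counting program and annotation release: not given in the sources used here. A second table, of predicted miRNAs, was not used here, since its rows give no position. The fits were made by edgeR 4.0.16 under R 4.3.3 (filterByExpr, TMM, quasi-likelihood test of hypoxia over control, Benjamini-Hochberg at 0.05 over 619 miRNAs), which was tested on simulated data. Each standard error is the size of the log2 fold change over the square root of F. Alternatives were other scalings, no filter, DESeq2 1.42.0, summed arms, single libraries left out and the column letter as a block. Arms were compared after adding 1 count to each.

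Replicate pairing was checked before calls were compared. Over tested miRNAs, the deviations of same-lettered libraries from their group means correlated at 0.52 for A, 0.43 for B and 0.28 for C (Pearson, across miRNAs, which are not independent). For unlike letters the values were -0.44 to 0.12, and letters were taken as pairs. Deviations cancel within a group, so higher values for like letters force lower ones for unlike letters, which are no separate evidence. The pairing rests on column names and values, not on the labels. Labels call the libraries biological replicates and name neither animals nor cultures; the p-values thus reflect library-to-library spread, which may be partly technical. In the library with the fewest counts, 0 counts allow up to 0.244 CPM (3 counts). Members, lists and the rule for named miRNAs (all members, miRNAs of equal seed, the 5 nearest profiles, the 3 most abundant on chromosome X) were chosen with earlier results of these data known. miR-7061-3p, miR-503-5p and hairpin ranks follow from these lists.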

Additional observations from a re-analysis of the deposited data

How the results depend on the processing

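The count of cluster arms called was 0 without a block under TMM, RLE, upper-quartile or library-size scaling, without the low-count filter, with DESeq2, with summed arms and without any 1 library. With the replicate block (column letter) it was 2 in edgeR, where 14 of all 619 miRNAs were called, and 2 in DESeq2, with 36 of 1322. It was 3 with library-size scaling, where miR-500-3p joined miR-362-3p and miR-188-5p while the calls over all miRNAs numbered 55 of 619, and 1 at the hairpin level (miR-188), with 12 of 437. With the replicate block and pair B left out it was 2, with 23 of 627 called, and with pair A or pair C left out it was 0, with 0 called over all miRNAs. The block with DESeq2, library-size scaling, summed arms or a pair left out was added after the data were seen. In edgeR with TMM and all pairs, the block changed the call of no other cluster arm.

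The median log2 fold change of the tested arms was 0.11, and from 0.06 to 0.30 over these settings. In all 17 settings that keep the arms apart, miR-362-3p (0.65 to 1.06), miR-188-5p (0.47 to 0.91), miR-500-3p (0.35 to 0.69) and miR-500-5p (0.10 to 0.86) stayed above 0, and miR-501-3p (-0.39 to -0.10) and miR-501-5p (-0.46 to -0.06) below it. All settings refit the same libraries, or part of them, for the comparison that singled out miR-362-3p and miR-188-5p. The kept signs are thus no independent evidence. miR-362-5p, miR-532-3p and miR-532-5p crossed 0. The arm and order tests, which treat the libraries as independent, gave the same counts, 5 of 5 hairpins and 6 of 9 neighbours, with prior counts of 0.5 and 2. Scaling of libraries cancels in these within-library comparisons, so library-size scaling could not change the counts. With 5 libraries the exact test cannot reach the threshold, so it was not run. Depth limits miR-188-3p and miR-500-5p, of at most 16 and 40 counts per library.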
